A study of Mus musculus with 2 samples.

Results

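The muscle microRNA genes Mir206, Mir133b, Mir1a-1, Mir133a-2, Mir1a-2, Mir133a-1 and Mir1b were examined in small RNA libraries of mouse gastrocnemius, the large superficial calf muscle. They were chosen by name, as the 3 loci that each pair a Mir1-type gene (Mir206, Mir1a-1 or Mir1a-2) with a Mir133 gene, together with Mir1b on the opposite strand of Mir1a-2. All 7 had a row among the 2202 microRNA genes counted. The libraries came from whole muscle, with no treatment named, of female B6CASTF1/J mice, a cross of C57BL/6J and CAST/EiJ, aged 14 days, with RNA under 30 nt selected. The labels describe 1 group with biological replicates 1 and 2. The biosample of replicate 1 names 3 females and that of replicate 2 names 1, both carry 1 donor identifier, and pooling is not stated, so the spread between them may be partly technical. The labels name no second tissue or age to compare with, so each gene is described by its level.

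A microRNA gene is transcribed as a hairpin, from which a 5p and a 3p arm of about equal length are cut. Bases 2 to 8 of the retained arm, the seed, pair with target messenger RNAs. The Mir1 and Mir133 genes are transcribed in skeletal and heart muscle under myogenic transcription factors and MEF2, and each locus yields a member of both families from shared primary transcripts. In skeletal muscle miR-1 and miR-206 are known for promoting myoblast differentiation, and miR-133 for acting on proliferation and differentiation. Mir206 is largely restricted to skeletal muscle, where it is high in newly formed and regenerating fibres and takes part in the repair of neuromuscular junctions. Mir133b lies next to it.

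The arms shown here are those of the locus with nearly all the reads, and the 5p arm that compares miR-1 with miR-206. RefSeq (GRCm38.p6) held arms of 3 of the 7 genes. Each is printed 5′ to 3′ with its seed, bases 2 to 8, in capitals. They lie on the plus strand, at chr1:20679017-20679039 and chr1:20679055-20679076 for miR-206, chr1:20682797-20682818 and chr1:20682834-20682855 for miR-133b, and chr2:180389057-180389079 for miR-1a-1-5p.
mmu-miR-206-5p: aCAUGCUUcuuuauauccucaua
mmu-miR-1a-1-5p: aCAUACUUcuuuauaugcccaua
mmu-miR-206-3p: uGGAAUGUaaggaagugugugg
mmu-miR-133b-5p: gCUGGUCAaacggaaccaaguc
mmu-miR-133b-3p: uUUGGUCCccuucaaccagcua
The 5p arms of miR-1a-1 and miR-206 are both 23 nt long and identical at 20 positions. Counted from 1 at the 5′ end, with the base of miR-1a-1-5p first, they differ by A5G, G17C and C19U, of which A5G lies in the seed. The seed letters of miR-206-3p also occur in the hairpins of Mir1a-1 and Mir1a-2, and those of miR-133b-3p in the hairpins of Mir133a-1 and Mir133a-2. No member of the Mir1 type held the seed letters of a miR-133b arm, and no Mir133 hairpin those of a miR-206 arm.

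The hairpins of the paired genes Mir206 and Mir133b are shown because their counts differ most. Here the capitals mark the 5p arm and then the 3p arm. Mir206 is at chr1:20679010-20679082 and Mir133b at chr1:20682769-20682887, both on the plus strand.
Mir206: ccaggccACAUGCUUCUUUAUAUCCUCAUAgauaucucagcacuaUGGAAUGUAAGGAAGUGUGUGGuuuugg
Mir133b: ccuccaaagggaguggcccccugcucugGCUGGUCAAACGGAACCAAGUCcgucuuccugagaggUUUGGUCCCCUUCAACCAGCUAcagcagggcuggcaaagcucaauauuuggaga
The Mir206 hairpin is 73 nt long with 42.5% G and C, and its predicted fold has a free energy of -31.7 kcal per mol. The Mir133b hairpin is 119 nt long with 56.3% G and C and a free energy of -58.8 kcal per mol. Their longest common stretch was 5 nt. Both overlap the long noncoding gene Gm28653 on the same strand. Mir133b lies wholly inside an exon of Gm28653 (20682713 to 20682958), and a longer exon of another transcript (20679023 to 20684298) starts within the Mir206 hairpin and covers 60 of its 73 nt.

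Mir206 held nearly all counted reads of the 7 genes. It had 254163 reads in replicate 1 and 363510 in replicate 2, which is 95105 and 84695 CPM (counts scaled to library size, that is reads of the gene divided by the reads of all microRNA genes in that library, times 1e6). It was somewhat higher in replicate 1, and the mean was 89900 ± 7361 CPM (SD, n = 2). Of the counted reads of all 7 genes, 99.7% in replicate 1 and 99.75% in replicate 2 were from Mir206. Only reads aligned to 1 place are counted. Reads confined to sequence that the Mir1a genes or the Mir133 genes share are therefore left out. Their number was not tested. By CPM, which is not divided by hairpin length, Mir206 was at rank 3 of the 2202 genes in each replicate. Reads of other genes that align to several places are also left out. Their part in this rank was not tested. The 7 genes together took 9.54% of gene reads in replicate 1 (95% binomial interval 9.50 to 9.57) and 8.49% in replicate 2 (8.46 to 8.52). The other 6 took 0.0283% (0.0263 to 0.0304) and 0.0215% (0.0201 to 0.0229). All intervals are exact (Clopper-Pearson) and cover counting error only, since reads without molecular identifiers are not independent molecules. In whole muscle, few cells with much of a microRNA and many cells with little cannot be told apart.

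**Figure D1:**
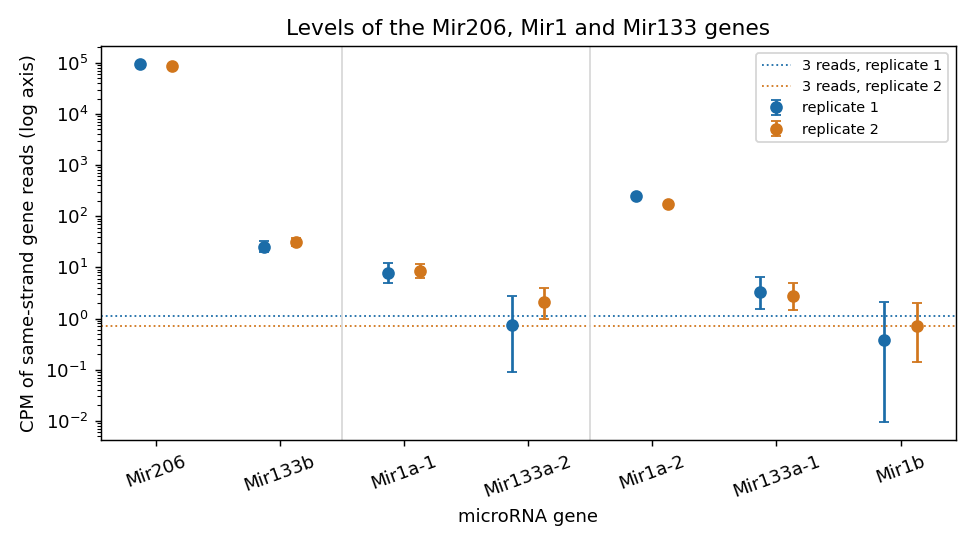
CPM of each member (log axis) in replicate 1 (blue) and replicate 2 (orange), with exact 95% counting intervals as bars and the level of 3 reads as dotted lines. Mir206 stands highest, at 95105 and 84695 CPM. Mir133a-2 in replicate 1 and Mir1b in both replicates lie at or under the 3-read level. Reads aligned to several places are not counted.

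Among the Mir1-type genes, Mir1a-2 came next and Mir1a-1 after it. Reads confined to the 28 nt that these genes share are in no gene's count. The level of the miR-1 arms is therefore not given by these counts. Mir1a-2, which encodes miR-1 from chromosome 18 (10785481 to 10785552, minus strand), had 655 reads in replicate 1 and 729 in replicate 2, or 245 and 170 CPM. Its level was higher in replicate 1, and its counting intervals (227 to 265 CPM and 158 to 183 CPM) did not overlap. Mir1a-1, the copy on chromosome 2 (180389048 to 180389124, plus strand), had 21 and 37 reads, or 7.86 and 8.62 CPM, with overlapping intervals (4.86 to 12.01 and 6.07 to 11.9). No other annotated gene overlaps it. Mir1b, on the plus strand opposite Mir1a-2 (10785446 to 10785567), had 1 read in replicate 1 and 3 in replicate 2, neither above the 3-read limit, which is 1.12 CPM in replicate 1 and 0.699 CPM in replicate 2.

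The 3 Mir133 genes all had few reads aligned to 1 place. Reads confined to the sequence they share are in no gene's count, so the level of the miR-133 arms is not given by these counts. Mir133b had 68 reads in replicate 1 and 133 in replicate 2, or 25.4 CPM (19.8 to 32.3) and 31.0 CPM (25.9 to 36.7). Mir133a-1 (chromosome 18, 10782909 to 10782976, minus strand) had 9 and 12 reads, or 3.37 CPM (1.54 to 6.39) and 2.80 CPM (1.45 to 4.88). Mir133a-2 (chromosome 2, 180398379 to 180398482, plus strand) had 2 and 9 reads, or 0.748 CPM (0.0906 to 2.70) and 2.10 CPM (0.959 to 3.98). Together the Mir133 genes had 79 reads in replicate 1 and 154 in replicate 2. The intervals of Mir133a-1 and Mir133a-2 overlapped in both replicates, so their order is not resolved, whereas Mir133b lay above both in these counts.

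The order of the mean levels in CPM was Mir206, Mir1a-2 (207 ± 53.2), Mir133b (28.2 ± 3.92), Mir1a-1 (8.24 ± 0.539), Mir133a-1 (3.08 ± 0.404), Mir133a-2 (1.42 ± 0.954) and Mir1b (0.537 ± 0.230), each with the SD of 2 replicates. Divided by hairpin length, the order was the same, with 1232 CPM per nt for Mir206 and 2.88 CPM per nt for Mir1a-2. Both orders are of reads aligned to 1 place. From Mir206 down to Mir1a-1 no neighbours in this order had overlapping counting intervals in a replicate. Mir1a-1 and Mir133a-1 overlapped in replicate 1 but not in replicate 2, and Mir133a-2 and Mir1b overlapped in both. At 1 CPM or more in both replicates, the level taken as expressed, 5 of the 7 were found, against 16.7% of all microRNA genes (367 of 2202). Mir133a-2 missed it in replicate 1, and Mir1b in both. Among the 2202 genes, mean CPM placed Mir1a-2 at rank 137, Mir133b at 219, Mir1a-1 at 271, Mir133a-1 at 321, Mir133a-2 at 369 and Mir1b at 463. Genes that reached 1 CPM in both replicates had a median of 81.5 CPM, with Mir206 and Mir1a-2 above it and Mir133b, Mir1a-1 and Mir133a-1 under it.

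**Figure D2:**
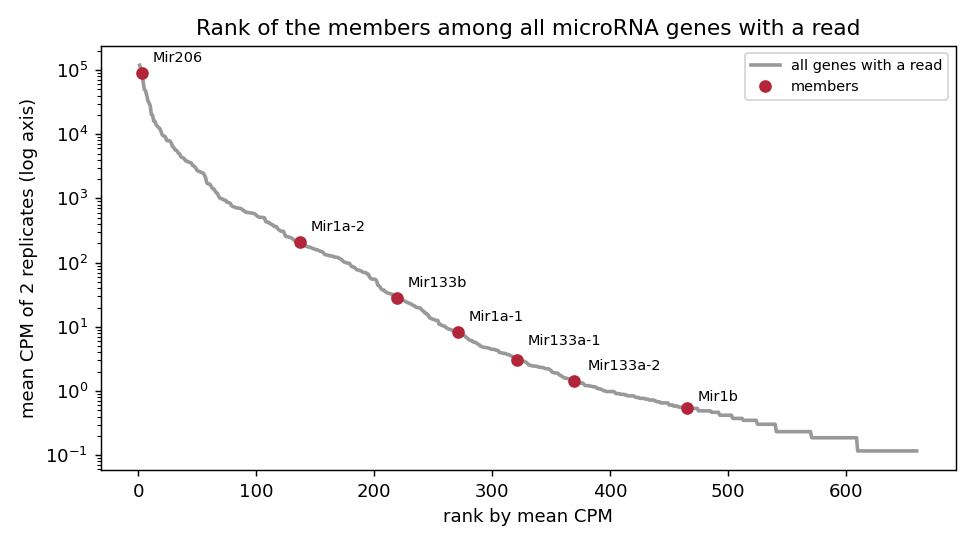
Mean CPM of the 2 replicates (log axis) against rank for every microRNA gene with a read (grey line), with the 7 members in red. Mir206 sits at the top at rank 3 and the others run from rank 137 (Mir1a-2) to rank 463 (Mir1b). Reads aligned to several places are not counted.

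The paired genes of each locus were unequal in the same direction, the Mir1-type gene having more reads than its Mir133 neighbour in both replicates at all 3 loci. These ratios are taken within a library and do not depend on its total. They count only reads aligned to 1 place. The Mir133 genes share 21 to 31 nt with each other, including nearly all of miR-133b-3p. Mir1a-1 and Mir1a-2 share 28 nt, a stretch that holds the seed letters of miR-206-3p. Reads confined to these stretches are in no gene's count. The part of such reads in the direction and size of the ratios was not tested. Mir206 and Mir133b, whose hairpins are 3686 nt apart, stood at 3738 reads of Mir206 per read of Mir133b in replicate 1 (95% interval 2948 to 4813) and 2733 in replicate 2 (2306 to 3264). Mir1a-2 and Mir133a-1, 2504 nt apart within introns of the host gene Mir133a-1hg and opposite introns of Mib1, a ubiquitin ligase of Notch signalling, stood at 72.8 (38.1 to 160) and 60.8 (34.6 to 118). Mir1a-1 and Mir133a-2, 9254 nt apart, stood at 10.5 (2.57 to 92.4) and 4.11 (1.95 to 9.69), resting on 2 and 9 reads of Mir133a-2. The ratio at the Mir206 locus lay above those of the other loci, with intervals that did not overlap in either replicate.

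Divided by hairpin length, the ratio of mean levels per nucleotide was 5194 for Mir206 over Mir133b, against 3186 without that division. The same figures were 63.6 and 67.3 for Mir1a-2 over Mir133a-1, and 7.82 and 5.79 for Mir1a-1 over Mir133a-2. The ratio of Mir206 to Mir133b was 1.37 times higher in replicate 1 than in replicate 2 (95% interval 1.01 to 1.86). For Mir1a-2 over Mir133a-1 this factor was 1.20 (0.460 to 3.24) and for Mir1a-1 over Mir133a-2 it was 2.55 (0.459 to 26.2), both with intervals that include 1.

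The gap between Mir206 and Mir133b was set beside all neighbouring microRNA genes, defined as adjacent on 1 strand with starts within 10 kb and a mean of 1 CPM or more in both genes. There were 103 such pairs, with a median ratio of the higher over the lower gene of 6.80 and quartiles of 2.38 and 33.4. Only reads aligned to 1 place enter these ratios too. The part of sequence shared with other hairpins in them was not tested. At least as unequal as Mir206 and Mir133b were 1.94% of pairs, that is this pair itself and Mir431 over Mir3070b, of the Dlk1-Meg3 cluster, at 7066. The third was Mir382 over Mir544, of the same cluster, at 1191. Mir1a-2 over Mir133a-1 was at rank 19 and Mir1a-1 over Mir133a-2 at rank 56, under the median. In 100 of the 103 pairs the same gene was higher in both replicates.

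**Figure D3:**
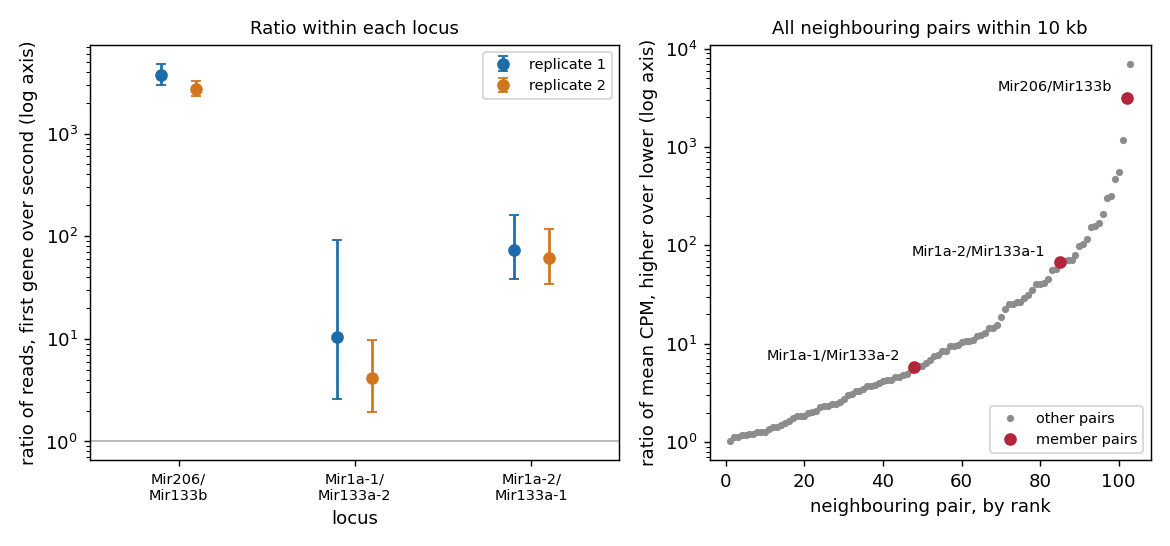
Left, reads of the Mir1-type gene over reads of its Mir133 neighbour at each locus (log axis) in replicate 1 (blue) and replicate 2 (orange), with 95% counting intervals. Right, ratio of mean CPM, higher over lower (log axis), for all 103 neighbouring pairs ordered by size, with the 3 member pairs in red. Mir206 over Mir133b at 3186 is the next to highest of the pairs.

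The copies of miR-1 and of miR-133a, which lie on different chromosomes, were also unequal or unresolved. Mir1a-2 had 31.2 reads per read of Mir1a-1 in replicate 1 (20.2 to 50.7) and 19.7 in replicate 2 (14.2 to 28.2), with hairpins of similar length (72 and 77 nt). Mir133a-1 had 4.50 reads per read of Mir133a-2 in replicate 1 (0.931 to 42.8) and 1.33 in replicate 2 (0.516 to 3.58), so a difference was not detectable at this depth. Only reads placed on 1 copy enter these ratios.

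Sequence shared between the copies bears on every member but Mir206. Reads aligned to several places stand in a separate line of each file and in no gene, and they made up 52.7% of the library in replicate 1 and 52.3% in replicate 2, or 1.58 and 1.48 per gene read. Mir1a-1 and Mir1a-2 share 28 nt, a stretch that holds the seed letters of miR-206-3p and takes 36.4% and 38.9% of their hairpins. No 3p arm of miR-1 was among the arms held, so how much of it lies in this stretch was not tested. Mir133a-1 and Mir133a-2 share 31 nt, and 21 nt of these are also in Mir133b. Those 21 nt are all but the last base of miR-133b-3p, printed above. A read of miR-133b-3p cut 1 base short would therefore match 3 hairpins, and the full 22 nt match 1. In contrast, Mir206 shares at most 13 nt with another member, and its 3p and 5p arms matched 1 position even by their first 18 bases. The 5p arm of Mir1a-1 and that of Mir133b also matched 1 position by 18 bases.

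Over all annotated hairpins, every 22-nt window of Mir206 (52 of 52) and of Mir133b (98 of 98) occurred at 1 position. The share was 93.1% for Mir1b, 87.5% for Mir1a-1, 86.3% for Mir1a-2, 84.3% for Mir133a-2 and 72.3% for Mir133a-1. Of all 2202 hairpins, 52.5% had every 22-nt window at 1 position. At 18 nt Mir206 was still at 100% and Mir133b at 96.1%. These matches are to hairpins and not to a whole genome, which was not used here. A read that matches several hairpins is in no gene's count, and how many of the multiply aligned reads come from Mir1a-1, Mir1a-2, Mir133a-1, Mir133a-2 or Mir133b was not tested.

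**Figure D4:**
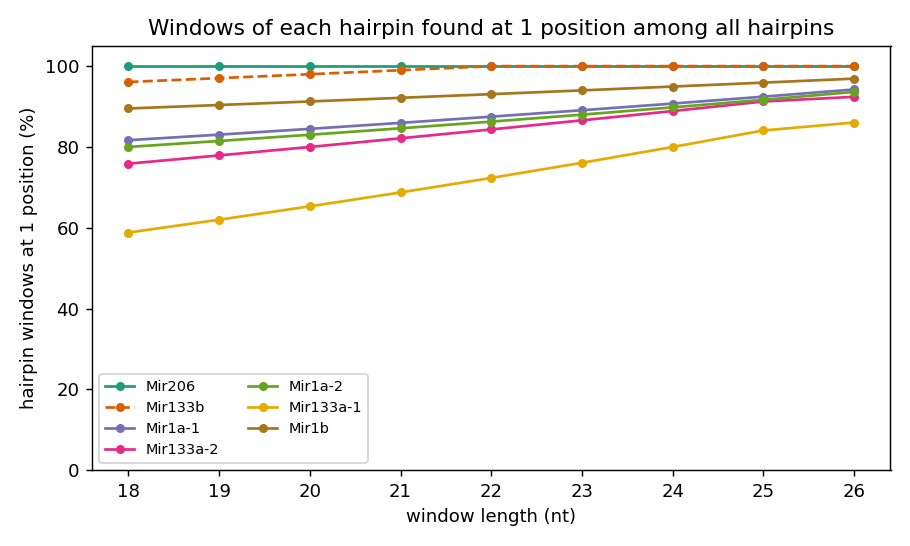
Share of windows of each member's hairpin (percent) found at 1 position among all annotated microRNA hairpins, against window length from 18 to 26 nt. Mir206 is at 100% at every length, Mir133b reaches it at 22 nt, and Mir133a-1 is lowest at each length.

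On the strand opposite to the gene, Mir206 and the other 4 members with no microRNA gene there (Mir133b, Mir1a-1, Mir133a-2, Mir133a-1) had 0 reads in both replicates. This stands against 254263 summed reads on their own strand in replicate 1 and 363701 in replicate 2. For the sum, the 3-read limit allows an opposite-strand share of up to 0.00118% and 0.000825%. Exact counting intervals have higher upper limits, 0.001451% and 0.001015% for Mir206 alone. Nearly all of the sum is Mir206, so these limits do not hold for the other 4. By exact counting intervals, their upper limits in replicates 1 and 2 were 5.28% and 2.735% for Mir133b. They were 16.1% and 9.49% for Mir1a-1, 33.6% and 26.5% for Mir133a-1, and 84.2% and 33.6% for Mir133a-2. Mir1a-2 and Mir1b overlap over all 72 nt of the Mir1a-2 hairpin, and each one's opposite column holds the other's reads. Mir1b had 655 opposite-strand reads in replicate 1 and 729 in replicate 2, equal to the reads of Mir1a-2, and Mir1a-2 had 1 and 3, equal to those of Mir1b. Of the reads at that site, 0.152% (0.00386 to 0.846) in replicate 1 and 0.410% (0.0846 to 1.19) in replicate 2 were on the strand of Mir1b.

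The column counted without regard to strand treats such sites differently. In it Mir1a-2 and Mir1b had 0 reads in both replicates, since a read overlapping both is ambiguous, while the 5 other members kept every read. Mir206 was the most abundant gene of that column, at 12.9% of its gene reads in replicate 1 and 11.3% in replicate 2. There Mir126a, the endothelial microRNA that leads by same-strand counts, had 6 and 5 reads, and Mir378a, a metabolic microRNA, had 0.

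Replicate agreement was judged for the 3 members whose mean reached 10 CPM, among 260 such genes. Of these genes 3.85% were more than 2-fold apart between the replicates, and none of the 3 members was. The ratio of replicate 1 over replicate 2 was 1.12 for Mir206 (95% counting interval 1.12 to 1.13), 1.44 for Mir1a-2 (1.30 to 1.61) and 0.821 for Mir133b (0.604 to 1.11). The interval excluded 1 for Mir206 and Mir1a-2, as it did for 58.8% of the 260 genes. Ordered from closest to farthest apart, Mir206 was gene 121, Mir133b gene 176 and Mir1a-2 gene 230 of the 260, whose median was 1.13-fold. Mir206 and Mir1a-2 were higher in replicate 1 and Mir133b was lower there. A single library on each side means these ratios compare libraries, so no p-value was computed.

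The 4 members under 10 CPM gave wide intervals. For Mir1a-1 the ratio of replicate 1 over replicate 2 was 0.911 (0.507 to 1.60), for Mir133a-1 1.20 (0.448 to 3.12) and for Mir133a-2 0.357 (0.0375 to 1.72). Mir1b, with 1 and 3 reads, was at 0.535 (0.0102 to 6.67). All 4 intervals include 1, and a difference was not detectable at this depth.

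**Figure D5:**
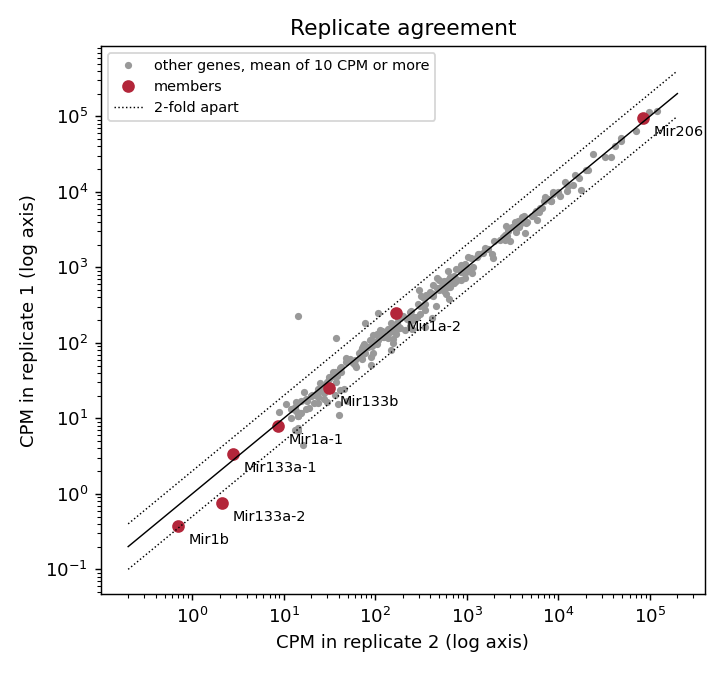
CPM in replicate 1 against CPM in replicate 2 (log axes) for genes whose mean reached 10 CPM (grey) and the 7 members (red), with the line of equal levels and dotted lines at 2-fold. Mir206, Mir1a-2 and Mir133b lie between the dotted lines, and Mir133a-2, from 2 and 9 reads, lies outside them.

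Other muscle microRNA genes gave a scale for these levels. Of 6 listed genes, 5 reached 1 CPM in both replicates. Mir378a, in an intron of the coactivator gene Ppargc1b, stood at 115060 CPM in replicate 1 against 98457 CPM in replicate 2. Mir486, made from Ank1 in muscle and red cells, had 643 and 538 CPM. It also had 31 and 64 reads on its opposite strand, and 0 in the unstranded column. Mir499, in an intron of the slow myosin gene Myh7b, had 213 and 280 CPM, and Mir208b, in Myh7, had 81.6 and 149 CPM. Mir208a, from the cardiac myosin gene Myh6, had 3 and 15 reads, and Mir133c had 0. Mir206 was thus near Mir378a in CPM, and Mir1a-2 near Mir499. All these levels are of reads aligned to 1 place. Reads confined to the stretch that Mir1a-2 shares with Mir1a-1 are in no gene's count. The levels of miR-1 and miR-499 are therefore not compared by these values. Mir499 and Mir208b were lower in replicate 1, at ratios of replicate 1 over replicate 2 of 0.761 (0.687 to 0.841) and 0.548 (0.468 to 0.640), the opposite direction to Mir206 and Mir1a-2. Mir378a and Mir486 were higher in replicate 1, at 1.17 (1.16 to 1.17) and 1.20 (1.12 to 1.27), the same direction as Mir206 and Mir1a-2.

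Of the 8 genes listed as skeletal muscle markers (6 members, Mir499 and Mir208b), 7 reached 1 CPM in both replicates, all but Mir133a-2, against 16.7% of all microRNA genes. Markers of other tissues were read from the same libraries. The listed heart gene Mir208a reached 1 CPM in both replicates, though with 3 reads in replicate 1, at the 3-read limit. Every listed liver, red cell, endothelial, and smooth muscle and fibroblast gene also reached 1 CPM in both replicates. Reaching this level was therefore not particular to the skeletal muscle genes. The neuronal genes Mir124a-1, Mir124a-2, Mir124a-3 and Mir9-1 had 0 reads in both replicates. Mir124a and Mir9 each have several copies with the same mature sequence, so reads of it that align to several copies would be in none of them, and these counts do not show the neuronal microRNAs to be absent. The liver gene Mir122 stood at 229 CPM in replicate 1 against 14.2 CPM in replicate 2, and the red cell genes Mir451a and Mir144 were 2.35 and 2.37 times higher in replicate 1. The endothelial gene Mir126a was at 118724 and 119268 CPM, and the smooth muscle and fibroblast genes Mir143 and Mir145a were at 19471 and 20154 CPM and at 757 and 717 CPM. The part of these cells in the higher Mir206 and Mir1a-2 levels of replicate 1 was not tested.

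By distance over the log2 levels (CPM plus 1) of both replicates, the genes nearest to Mir206 were Mir378a (0.35) and Mir126a (0.59). Nearest to Mir133b were Mir7j (0.10) and Mir34c (0.14), and nearest to Mir1a-2 were Mirlet7a-1 (0.01) and Mir18 (0.20). With 2 libraries this likeness is mostly one of level.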

How the data were processed

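Small RNA of 2 gastrocnemius samples was analysed from the deposited raw read counts per microRNA gene, made by the authors on mm10 with GENCODE M21, per the labels and accompanying text. Which aligner and counter were used is not given in those sources. Each file has 3 count columns, read from their order as unstranded, same-strand and opposite-strand, and 4 lines that name no gene (66.6% and 64.6% of reads), left out of all totals. Same-strand counts were divided by their gene total (2672454 in replicate 1, 4292012 in replicate 2) to give CPM. Arms are pooled in each count. All 2202 identifiers matched GENCODE M21, which gave symbols, positions and hairpins. Mature sequences are from RefSeq.

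Ratios have exact 95% intervals conditional on the summed reads, and 3 reads is the limit for a count of 0. With 1 group no test was made. The named genes are the 7 members, the 2 genes nearest in level to each member at 10 CPM or more, a muscle list, up to 3 of the most unequal neighbouring pairs, genes overlapping a member, and listed markers of heart, liver, red cells, endothelium, smooth muscle and fibroblasts, and neurons. Members and lists were chosen with earlier results of these data known. Alternatives covered the strand column, denominators (edgeR 4.0.16 TMM, DESeq2 1.42.0 size factors, all reads), thresholds and single replicates. Python 3.11.15, scipy 1.17.1, R 4.3.3 and RNAfold 2.7.2 were used.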

Additional observations from a re-analysis of the deposited data

Results flagged for a closer look

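2 kinds of value outside the same-strand counts bear on the members and stood above the 3-read limit. The opposite-strand column of Mir1b held 655 reads in replicate 1 and 729 in replicate 2, the same numbers as the reads on the strand of Mir1a-2, whose hairpin it contains. The line of multiply aligned reads, which names no gene, held 4219456 reads in replicate 1 and 6352784 in replicate 2.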

How the results depend on the processing

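The order of Mir206 over Mir133b and of Mir1a-1 over Mir133a-2 held under every alternative run, whereas Mir1a-2 over Mir133a-1 came to 0 in the unstranded column, where Mir1a-2 has no read. The level of Mir206 was 121040 CPM in the unstranded column, 98816 CPM with its own reads left out of the total, 35514 CPM with multiply aligned reads added to it and 30858 CPM over all reads. The summed share of the 7 genes was 12.1%, 3.56% and 3.09% under the unstranded, multiply aligned and all-read totals. At 10 CPM 3 members were expressed. At 1 CPM in the unstranded column 5 were, with Mir133a-2 in place of Mir1a-2. Per hairpin nucleotide, a choice made after seeing the data, Mir206 over Mir133b was 5194. Without replicate 1 or replicate 2, Mir1a-1 over Mir133a-2 ranged from 4.11 to 10.5. Neighbouring pairs at least as unequal as Mir206 and Mir133b, that pair included, numbered 4 of 125 with no level filter. At 10 CPM the number was 1 of 75, that pair itself. The ratio of replicate 1 over replicate 2 for Mir206 was 1.15 with TMM and in the unstranded column, 1.14 with DESeq2 size factors and 1.06 per all reads. Genes past the fold limit numbered 28 of 260 at 1.5-fold, 4 of 176 at a mean of 100 CPM and 54 of 396 at a mean of 1 CPM, where 1 of 6 members tested (Mir133a-2) was past it, a share near that of all genes. Where only the total was changed, the reads of the members stayed the same. In the unstranded column Mir206 also kept its reads, over smaller gene totals (1963516 in replicate 1 and 3227243 in replicate 2). The cause of the other shifts was not tested. Depth limits Mir1b, Mir133a-1 and Mir133a-2, each with at most 12 reads in a library.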
